A study of Mus musculus with 9 samples.

Results

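The comparison asked how CpG methylation in mouse plasmablasts differed from that in the naive B cells they derive from. It covered the CpGs, the sites where a cytosine is followed by a guanine, that had at least 10 reads in each of 3 naive B cell and 3 plasmablast libraries. Of the 911004 CpGs deposited for the series, 392730 met this rule. The donors were female C57Bl/6J mice, 10 weeks old, whose spleens were taken; the labels list no genetic modification. Naive B cells were sorted as B220+ CD43- from untreated mice, and plasmablasts as CD138+ with intermediate B220 on day 3 after the bacterial lipopolysaccharide LPS. A further group, LPS plasma cells (CD138+ with low B220, 3 libraries), is used below only to give the level at the next stage. The labels do not say which mice went into which library, so any spread between libraries may be technical. The p-values of classes and genes measure only how far these libraries vary, for genes with spread partly pooled over units. Those of single CpGs rest mainly on read counts, with 1 spread shared by nearly all CpGs. Those of segments also rest largely on read counts, with a spread drawn mainly from a value shared over segments.

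Methylated cytosine in mammals sits mostly at CpGs and is copied to the new strand at each cell division by the maintenance enzyme DNMT1, while TET enzymes oxidise it toward removal. Promoters rich in CpGs are usually unmethylated, and most CpGs elsewhere are highly methylated. Plasmablasts are dividing cells that have begun to secrete antibody; LPS drives them from B cells through the receptor complex TLR4 and its partners. In reduced representation bisulfite sequencing, genomic DNA is cut by MspI, whose site CCGG holds a CpG, and unmethylated cytosines are read as thymine. The level of a CpG is the share of its reads that are methylated.

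The promoter of Bach2, which encodes a repressor that holds back plasma cell formation, is shown first because each CpG tested in it fell. Its sequence is set beside those of Ltbp1, a latent TGF-beta binding protein gene whose window had the largest mean fall after Bach2 among those placed, Slc44a4, a choline transporter family gene with unequal neighbours, and Pax5, the factor that holds B cell identity, whose promoter was unmethylated. The letters are the 250 bases before the RefSeq start site on build GRCm38.p6, 5′ to 3′ on the gene's strand, and capitals mark the CpGs tested.
Bach2, chr4:32417185-32417434, plus strand: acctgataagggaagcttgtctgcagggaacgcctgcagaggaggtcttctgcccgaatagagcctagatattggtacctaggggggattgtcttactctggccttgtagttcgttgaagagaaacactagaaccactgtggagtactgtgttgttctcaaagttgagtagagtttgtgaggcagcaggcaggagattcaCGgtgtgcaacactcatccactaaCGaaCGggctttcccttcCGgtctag
Ltbp1, chr17:75178531-75178780, plus strand: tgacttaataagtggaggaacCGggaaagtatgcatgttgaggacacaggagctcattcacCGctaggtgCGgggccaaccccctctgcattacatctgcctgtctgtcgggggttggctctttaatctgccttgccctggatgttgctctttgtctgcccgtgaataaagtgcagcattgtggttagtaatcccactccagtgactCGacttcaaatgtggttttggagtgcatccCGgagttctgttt
Slc44a4, chr17:34914216-34914465, plus strand: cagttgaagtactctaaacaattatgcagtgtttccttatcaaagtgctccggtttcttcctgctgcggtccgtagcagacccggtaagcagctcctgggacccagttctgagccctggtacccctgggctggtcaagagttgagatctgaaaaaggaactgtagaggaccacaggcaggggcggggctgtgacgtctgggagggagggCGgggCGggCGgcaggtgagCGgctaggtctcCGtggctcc
Pax5, chr4:44710695-44710944, minus strand: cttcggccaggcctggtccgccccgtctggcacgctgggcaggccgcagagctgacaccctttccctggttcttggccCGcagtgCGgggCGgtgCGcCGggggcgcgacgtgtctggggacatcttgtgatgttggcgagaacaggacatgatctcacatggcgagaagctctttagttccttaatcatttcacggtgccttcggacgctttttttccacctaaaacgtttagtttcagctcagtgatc
The deposited positions are of build mm9, so CpGs were placed in these windows by their spacing, with at least 4 CpGs and 1 possible offset; 386 of 529 genes looked up had a promoter sequence under the same gene ID and 47 could be placed. The MspI site CCGG, a palindrome, occurs in the first 250 bases of 47.1% of 32851 RefSeq promoters; it occurs 1 time in the Bach2 and Pax5 windows and 2 times in the other 2.

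The 4 tested CpGs of the Bach2 window averaged 100, 98.6 and 98.4% in naive B libraries 1 to 3 and 65.3, 76.3 and 76.9% in plasmablasts 1 to 3. Each of the 4 CpGs fell by itself, by 23.3 to 32.1 points (quasi-binomial test with Benjamini-Hochberg adjusted p between 5.51e-06 and 0.0013). Every plasmablast library lay below every naive one, which a call required. The 5 CpGs of Ltbp1 averaged 74.6, 75.9 and 73.0% against 51.9, 50.9 and 50.5%. The 3 farther from the start, at -229, -189 and -180 bases, fell from 90.7, 96.3 and 93.8% to 61.2, 65.8 and 63.9%, while those at -43 and -13 bases stood at 31.0 and 60.8% in naive B cells and at 16.6 and 48.1% in plasmablasts and were not called. In Slc44a4 the CpGs at -21 and -9 bases fell by 34.5 and 29.6 points, and the 3 at -41 to -32 bases differed by -6.42 to -13.4 points and were not called. The 5 CpGs of Pax5 averaged 0.00, 2.61 and 1.43% in naive B cells and 2.78, 8.57 and 1.74% in plasmablasts. None was called, and the highest value belonged to plasmablasts 2, the library with the highest level at unmethylated CpGs generally.

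That background has to be kept in view for low levels. At the 68810 CpGs under 5%, naive B cells 1 had a mean level of 0.646%, 4 libraries lay from 1.61 to 2.67%, and plasmablasts 2 reached 5.34%. At 18 mitochondrial CpGs the lowest value was again in naive B cells 1 (0.332%) and the highest in plasmablasts 2 (7.18%). Total reads over all deposited CpGs ran from 16037172 to 29948088 per library, and the median depth at a tested CpG was 24 to 35 reads. Levels of replicate libraries correlated at 0.959 to 0.985 across CpGs and those of different groups at 0.949 to 0.954; CpGs are not independent replicates. The labelled cell types could be checked on methylation only. The 4 tested B cell marker loci averaged 56.8 to 59.4% in naive B cells and 41.7 to 45.1% in plasmablasts. T cell marker loci stood higher, at 73.7 to 77.2% and 64.4 to 65.5%, as did myeloid ones at 72.2 to 76.3% and 64.3 to 68.4%. Erythroid and stem cell loci stood at 53.0 to 55.5% and 48.5 to 49.3%, and NK cell loci at 31.5 to 34.2% and 30.1 to 32.7%. In naive B cells these last lists lay below the B cell loci, so marker levels did not single out the labelled type.

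Averaged over all CpGs tested, plasmablasts carried less methylation than naive B cells. The mean level was 63.7, 65.8 and 65.6% in naive B libraries 1 to 3 and 56.2, 58.4 and 56.9% in plasmablasts 1 to 3. The groups did not overlap, and the difference of means was -7.88 points (two-sided exact permutation test, p = 0.1, the lowest that 3 against 3 can reach; adjusted over the 11 CpG classes compared, 0.122). Intergenic CpGs stood at 79.9% ± 1.11 and 68.9% ± 0.923 (SD, n = 3) and introns at 71.8% ± 1.14 and 62.8% ± 1.04, without overlap. Exons stood at 56.2% ± 1.14 and 51.5% ± 1.19. Promoters, taken from 2500 bases upstream to 500 downstream of a start, were at 23.8% ± 1.52 and 22.3% ± 1.93 and overlapped (exact permutation p = 0.3). Within 1000 bases of a start the levels were 17.2% ± 1.53 and 16.9% ± 2.02 (exact permutation p = 1). Without naive B cells 1 and plasmablasts 2, the libraries at the ends of the background, the last difference was -2.39 points in place of -0.347 and that of promoters -3.49 in place of -1.51.

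**Figure D1:**
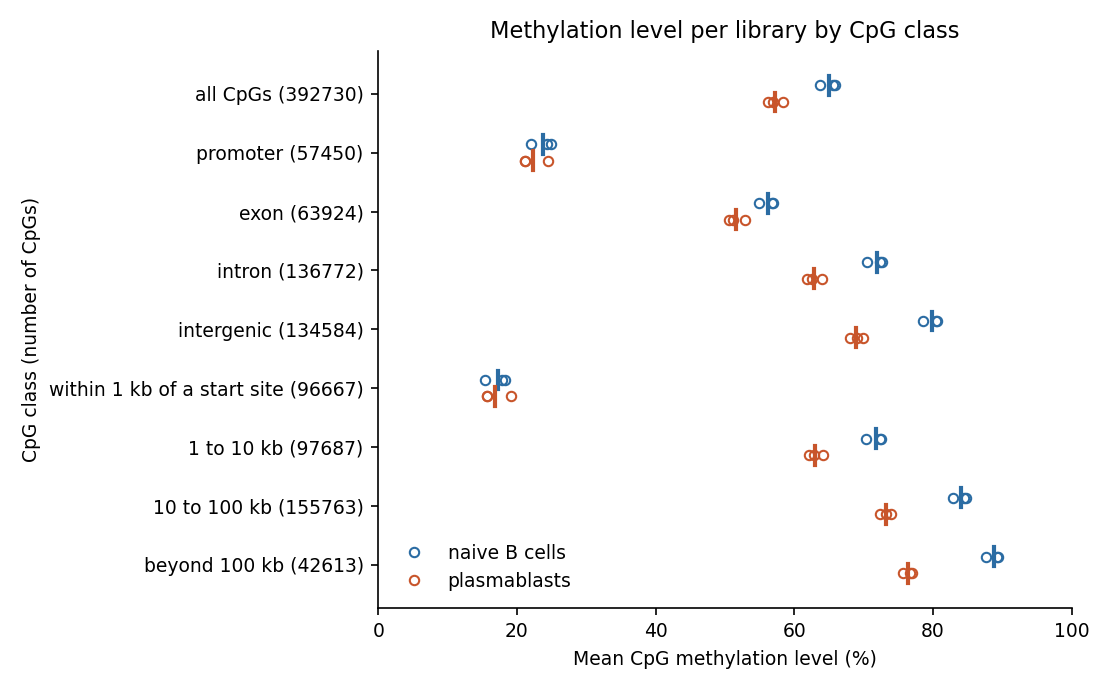
Mean CpG methylation level (%) per library for classes of CpGs, by annotation and by distance to the closest start site. Circles are libraries (3 per group), bars are group means; the groups lie apart in introns, intergenic DNA and beyond 1 kb, and overlap in promoters and within 1 kb.

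The difference varied with the level a CpG started from. CpGs were sorted by their level in naive B cells 1 alone, and the difference was then taken between the plasmablasts and naive B cells 2 and 3. CpGs under 5% were 0.906 points higher in plasmablasts on average. That mean rested on plasmablasts 2 at 7.57%. Plasmablasts 1 and 3, at 3.72 and 3.30%, lay below naive B cells 2 and 3, at 4.17 and 3.75%. CpGs at 40 to 60% were 10.3 points lower, and those at 80 to 90% were 16.4 points lower, the largest difference of the 9 ranges. Among the 69964 CpGs at 100%, the difference was smaller again, with a mean of -10.4 points and a median of -8.96, and only 0.475% of them were lower by 40 points or more. Within 1 range the classes lay closer together. Among CpGs from 95 to below 100%, promoters differed by -11.2 points, introns by -11.5 and intergenic CpGs by -12.4, while exons differed by -8.74. These values describe the libraries and were not tested.

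**Figure D2:**
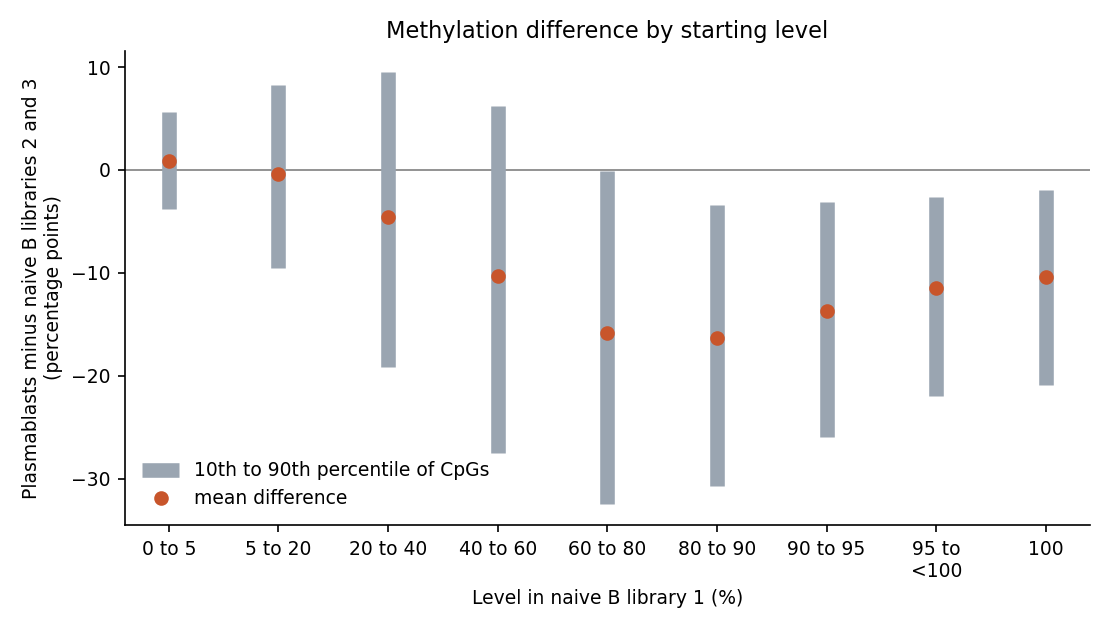
Difference in methylation (percentage points, plasmablasts minus naive B libraries 2 and 3) by the level in naive B library 1 (%). Circles are means and grey bars run from the 10th to the 90th percentile of CpGs. The mean falls from 0.906 points under 5% to -16.4 points at 80 to 90% and is -10.4 points at 100%. Under 5% only plasmablasts 2 lay above naive B cells 2 and 3.

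Single CpGs almost all changed in 1 direction. A CpG was called where the quasi-binomial test gave an adjusted p under 0.01, pooled levels differed by at least 20 points and the libraries of the groups did not overlap. By this rule 40251 CpGs fell, which is 10.2% of those tested, and 200 rose, which is 0.0509%. The CpGs that fell stood at 90.3, 91.5 and 91.6% in the naive B libraries and at 61.1, 63.3 and 62.3% in the plasmablast libraries, and 89.7% of them started at 80% or more. Their median fall was 26.3 points, and 84.1% still carried 50% methylation or more in plasmablasts. Only 1277 (3.17%) ended under 20%. The 1287 CpGs that fell by 50 points or more went from 85.7% ± 1.06 to 24.3% ± 2.43 and stood at 15.9% ± 3.12 in plasma cells. The CpGs that rose went from 20.8% ± 2.71 to 47.3% ± 1.86, and 116 of the 200 started under 20%; in plasma cells they stood at 35.1% ± 2.56. The CpGs called were chosen for these differences, so the levels describe them. Without naive B cells 1 the count of rises was 102, and without plasmablasts 2 it was 110. With a dispersion prior taken over all CpGs, instead of over those with intermediate levels and a spread above 0, no CpG was called in either direction (139119 lower and 6583 higher at an unadjusted p under 0.05); limma on log ratios of reads called 38227 and 134.

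By annotation, 14.4% of intergenic CpGs fell, 11.7% of those in introns, 4.71% in exons and 3.21% in promoters. The share was 1.82% within 1000 bases of a start site and 15.4% beyond 100 kb. Of the 57450 promoter CpGs, 37234 stood under 5% in naive B cells 1, too low for a fall of 20 points. By chromosome the mean difference ran from -7.26 points on chromosome 19 to -8.46 on chromosome 1. The difference was -8.40 on the X chromosome and -7.87 on the autosomes.

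Neighbouring CpGs that started high changed alike over short distances. Adjacent CpGs were paired only where both stood at 80% or more in naive B cells 1, with differences taken against naive B cells 2 and 3. Across 30037 pairs 1 to 10 bases apart, which largely share reads, the differences correlated at 0.563, and for pairs 1001 to 5000 bases apart the correlation was 0.108. A CpG next to a CpG that fell had itself fallen in 35.7% of such pairs up to 10 bases apart, against 4.42% next to one that was not called. Segments were therefore formed from tested CpGs with gaps of at most 100 bases and at least 4 CpGs, without regard to their levels. A segment was called at a difference of 10 points. Of 22430 segments, with a median of 5 CpGs over 46 bases, 2197 fell, which is 9.79%, and 16 rose, which is 0.0713%. Of the segments at 80% or more in naive B cells 25.1% fell, and 61 segments fell by 40 points or more. The count that fell was 1258 without naive B cells 2 and 1388 without naive B cells 3, and the count that rose was 9 without naive B cells 3.

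The 8 named segments with the largest falls, all of 4 or 5 CpGs, lost most of their methylation in each plasmablast library. The segment closest to H2afy3, a histone variant gene, lies in an intron at chr15:62021308-62021350 (mm9) and stood at 94.7, 92.6 and 87.4% in naive B cells and at 1.41, 9.09 and 11.8% in plasmablasts (quasi-binomial adjusted p = 7.28e-23). The segment in an intron of Cflar, which encodes a brake on caspase-8 and so on cell death, at chr1:58780544-58780688, stood at 95.4, 94.7 and 88.2% and at 8.45, 21.6 and 4% (adjusted p = 6.72e-19). The segment near Gimap4, a lymphocyte GTPase gene, at chr6:48642890-48642925, fell from 80.9% ± 5.59 to 5.35% ± 2.12. These segments were chosen for the size of their fall, so the distance between the groups only describes them. An exon segment of Skil, which encodes a repressor of SMAD signalling, at chr3:30996434-30996460, fell from 98.0% ± 1.36 to 25.9% ± 2.09, and its 5 CpGs each fell by 59.7 to 78.8 points. The segments of Plekha2, Gm6402, Cd2bp2 and Xrcc1, the last a DNA repair scaffold gene, fell by 61.7 to 76.1 points. In plasma cells the 8 segments stood between 3.01 and 17.4%, and of the 61 segments that fell by 40 points or more none had a plasma cell mean above the naive mean less 20 points.

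The segment with the largest rise lay in an exon of Egr3, an early growth response transcription factor gene, at chr14:70479532-70479578 (mm9). Its 4 CpGs stood at 17.8, 20.6 and 13.2% in naive B cells and at 49.6, 47.1 and 53.5% in plasmablasts, with every CpG called higher (adjusted p = 1.95e-06). Plasma cells stood at 46.0%. The Egr3 locus was not uniform, since 11 of its 65 CpGs fell and 5 rose, and its mean of 44.0 and 39.2% was not called. The intron segment of Hif3a, a hypoxia-inducible factor gene, rose from 24.3% ± 0.902 to 44.4% ± 5.45, and an exon segment closest to Srebf1, a lipid synthesis factor gene, rose from 11.9% ± 4.26 to 30.7% ± 3.33. An intron segment of Cited1, a transcriptional coactivator gene on the X chromosome, rose from 24.3% ± 2.14 to 41.8% ± 2.47 and stood at 22.5% in plasma cells; of the 16 segments that rose, 13 had a plasma cell mean above the naive one. The segments of Pip4k2b, Zdhhc7 and Inpp5a also rose, by 18.9 to 21.7 points, but each lost its call when 1 of the libraries was left out; with gaps of at most 200 bases Zdhhc7 differed by 11.8 points and was not called.

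For genes, levels of all tested CpGs closest to a gene's start site were averaged with equal weight, and this mean is called the locus. A locus was called by limma at an adjusted p under 0.01, a difference of at least 5 points and no overlap. Of 14645 loci 9004 fell, which is 61.5%, and 10 rose, which is 0.0683%; the median locus differed by -7.38 points. A single gene that fell is therefore no exception, and lists are read against this share. Summing the reads of a locus and testing them with the quasi-binomial model called 4006 (27.4%) lower and 1 higher. For loci named below whose call was lost under summed reads, the adjusted p of that test is given. A coverage minimum of 5 or 20 reads in place of 10 lets other CpGs enter a locus, and where that moved the difference of a called locus named below by over 1.5 times, the other difference is given.

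The largest falls were at Rab30, a small GTPase gene of the Golgi, with 89.6, 91.7 and 90% in naive B cells and 33.6, 37.7 and 37.1% in plasmablasts over 10 CpGs, each of which fell (limma, adjusted p = 1.80e-14). Unc119, a lipid-binding trafficking gene, also fell at all of its 10 CpGs, from 85.7, 89.3 and 81.3% to 37.8, 36.9 and 44.6%. Pou2f2, the B cell octamer factor Oct-2, had 89.3, 95.1 and 93.7% in naive B cells and 52.9, 56.5 and 50.1% in plasmablasts. In each of the 3 every plasmablast library lay more than 30 points under every naive one. These loci were picked for the size of their fall, so the gap only describes them. Faim3, the Fc receptor for IgM, fell from 86.6% ± 1.52 to 49.8% ± 7.97. Cnp, an enzyme gene known from myelin, fell from 82.3% ± 0.995 to 46.8% ± 0.972 over 25 CpGs. A930005H10Rik, Edf1 and Mesdc1 fell by 36.9 to 48.1 points; at a minimum of 5 reads Edf1 differed by -16.8 points and Mesdc1 by -22.8, and both kept their call. Tlr6, a Toll-like receptor that pairs with TLR2, and Il10 complete the 10 largest and are described with their pathways.

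**Figure D3:**
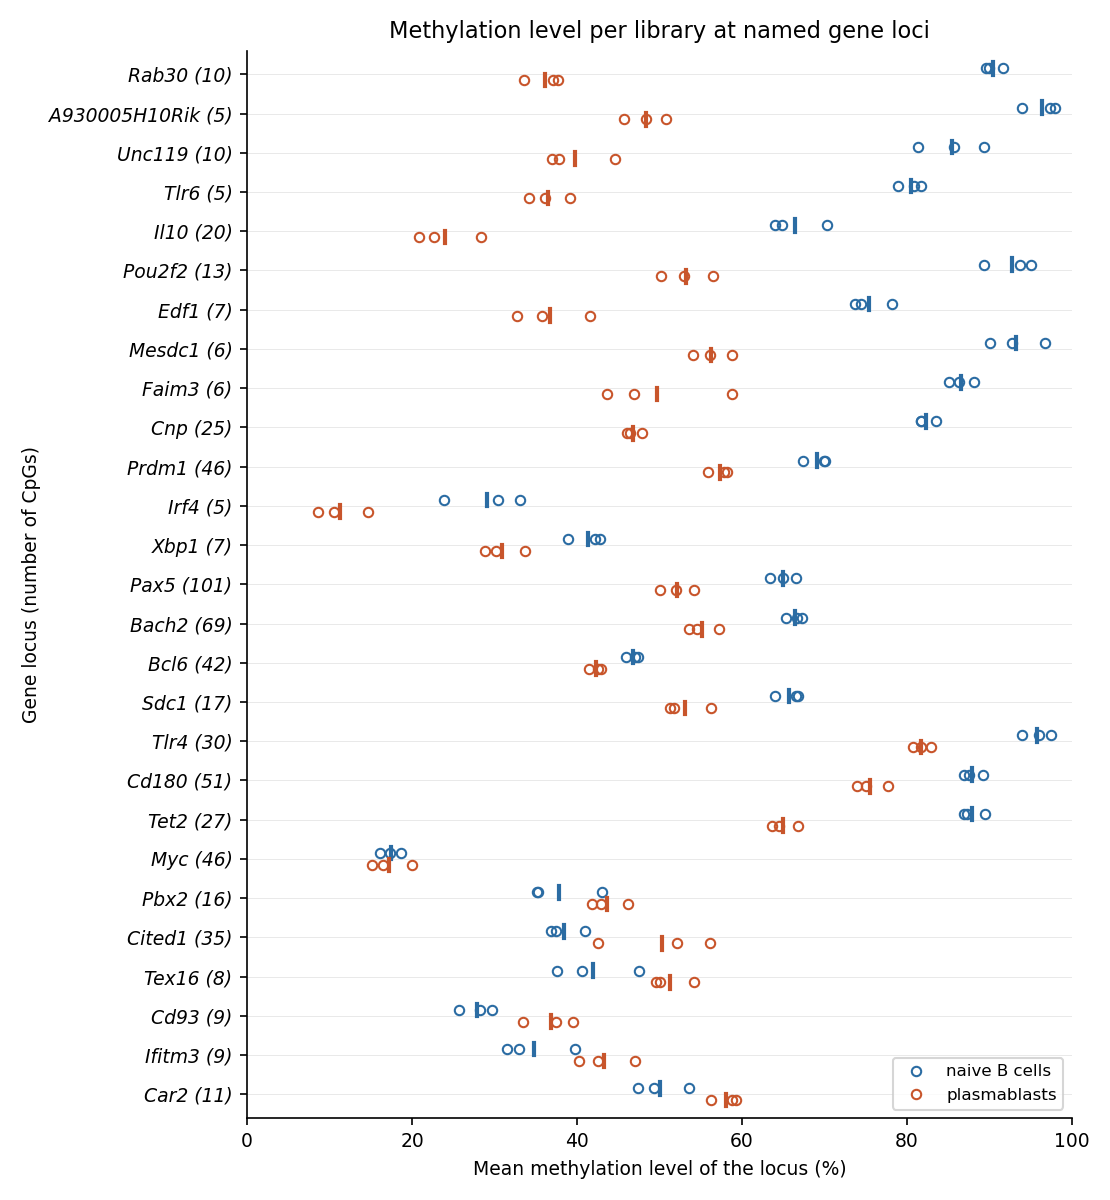
Mean methylation level (%) of named gene loci per library, with the number of tested CpGs in brackets; circles are libraries, bars are group means. From top to bottom, the 10 largest falls (plasmablasts at 24.0 to 56.3%), selected regulators and receptors, and the 5 largest rises, where the means of the 2 groups lie within 12 points of each other.

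LPS is sensed by TLR4 with its partner MD-2, and in B cells also by RP105 with its partner MD-1. All 4 genes fell. Tlr4 stood at 93.9, 96.0 and 97.5% in naive B cells and at 82.9, 81.7 and 80.7% in plasmablasts (limma, adjusted p = 2.98e-08), and Ly96, which encodes MD-2, fell from 92.2% ± 0.970 to 76.2% ± 3.65. Cd180, which encodes RP105, stood at 87.5, 89.3 and 87.0% and at 75.1, 77.7 and 74.0%. Its partner Ly86, which encodes MD-1, moved further, from 91.7, 94.0 and 92.5% to 61.5, 63.6 and 64.6% (limma, adjusted p = 1.04e-10). Tlr6 stood at 80.9, 81.7 and 78.9% and at 34.2, 39.1 and 36.2%. Unc93b1, which carries nucleic acid-sensing Toll-like receptors to endosomes, fell from 20.8% ± 3.78 to 5.55% ± 1.51 (adjusted p = 0.174 with summed reads), and the kinase-like adaptor Irak2 fell from 47.5% ± 1.02 to 29.5% ± 2.83 (0.0411 with summed reads). Of 18 tested genes of LPS receptors and early signalling 12 fell (66.7%; 6, or 33.3%, with summed reads) and none rose, against 61.5 and 27.4% over all loci; their median difference was -7.93 points. Irf3, Irf7, Tab2, Tirap, Irak3 and Ticam2 differed by -4.31 to 2.44 points and were not called.

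Downstream of these receptors, 15 of 25 NF-kB subunits and regulators fell (60%; 9, or 36.0%, with summed reads) and none rose. The share over all loci was 61.5%, or 4006 of 14645 with summed reads. Traf1, an adaptor of TNF receptors and a target of NF-kB, had the largest fall of the list. Its 21 CpGs averaged 51.5, 55.5 and 54.6% in naive B cells and 29.4, 34.1 and 30.6% in plasmablasts (limma, adjusted p = 1.01e-09). Map3k14, the kinase of the alternative NF-kB pathway, fell from 87.3% ± 0.253 to 73.6% ± 3.90, Tnip1, which restrains the pathway, by 12.8 points and Ikbke by 12.6. Among the subunits themselves Nfkb1 went from 85.2 to 77.4% and was called. Rel, Rela, Relb and Nfkb2 differed by -0.869 to -3.67 points and were not.

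Of 23 activation and AP-1 factors 9 fell (39.1%; 4, or 17.4%, with summed reads), and the median naive level of the list was 39.9% against 68.0% for all loci. Batf3 fell from 87.1, 88.2 and 86.4% to 62.5, 68.3 and 64.6% (-13.2 points at a minimum of 5 reads, still called). Nfatc1, a calcium-controlled factor, fell from 63.8% ± 1.23 to 45.0% ± 2.77 over 73 CpGs (-12.3 points and adjusted p = 0.0122 with summed reads). Batf fell by 13.7 points (0.0595 with summed reads) and Nfat5 by 12.9 (-8.53 at a minimum of 20 reads, still called). Jun, Junb, Atf3 and Myc, with 1.85 to 17.4% in naive B cells, were not called; Myc stood at 17.4% ± 1.27 and 17.2% ± 2.51 over 46 CpGs. With the library background subtracted, or without naive B cells 1 and plasmablasts 2, 12 of the 23 fell. In those settings the count over all 14645 loci was also higher, at 9679 and 9590 against 9004.

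The factors that define B cells and the receptors they carry fell with the rest. Of 26 tested B cell transcription factors 20 fell (76.9%; 7, or 26.9%, with summed reads). The shares over all loci were 61.5% and, with summed reads, 4006 of 14645. Pax5 stood at 63.4, 66.5 and 64.9% in naive B cells and at 52.0, 54.2 and 50.1% in plasmablasts (limma, adjusted p = 1.82e-08), and 20 of its CpGs fell, whereas the Pax5 promoter printed above did not. Ebf1, a partner of Pax5 in B cell commitment, fell from 64.8% ± 1.47 to 50.7% ± 2.12 (0.0177 with summed reads). Bach2 fell from 66.4% ± 1.02 to 55.1% ± 1.86 over 69 CpGs (0.0281 with summed reads). Ikzf1 fell by 17.6 points (-11.7 at a minimum of 5 reads, still called), the Oct-2 coactivator Pou2af1 by 17.2 (0.0102 with summed reads) and Ikzf3 by 14.1. Bcl6, the repressor of germinal centre cells, stood at 46.0, 47.1 and 47.4% and at 42.5, 42.9 and 41.5%; the libraries did not overlap, but the difference of -4.51 points is under the minimum.

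B cell receptors and signalling genes fell in 22 of 24 tested cases (91.7%; 13, or 54.2%, with summed reads), with a median difference of -12.7 points against -7.38 over all loci and a median naive level of 72.5% against 68.0%. Tnfrsf13c, the receptor for the survival factor BAFF, stood at 67.9, 66.6 and 67.6% in naive B cells and at 30.4, 37.5 and 36.4% in plasmablasts (-19.0 points at a minimum of 5 reads, still called). Cd80, a costimulatory ligand for T cells, stood at 75.0, 78.7 and 73.9% and at 43.6, 50.3 and 39.5%. Blnk, an adaptor behind the B cell receptor, fell from 65.8% ± 2.17 to 35.8% ± 4.57 and Ms4a1, which encodes CD20, from 85.5% ± 2.27 to 60% ± 0.871. In all 4 the lowest naive library lay above the highest plasmablast library by more than 20 points. They were named for the size of their fall, so this gap only describes them. Ciita, the switch of MHC class II genes, fell by 12.5 points over 13 CpGs. H2-DMa, at -4.16 points, was not called.

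Regulators of plasma cells fell in 15 of 21 tested loci (71.4%; 7, or 33.3%, with summed reads), and 1 rose. For all loci the share lower was 61.5%, or 4006 of 14645 with summed reads. Prdm1, which encodes Blimp-1, the repressor that drives plasma cell formation, stood at 67.4, 69.9 and 70.1% in naive B cells and at 57.8, 58.2 and 55.9% in plasmablasts over 46 CpGs (limma, adjusted p = 7.62e-08). Irf4, a dose-dependent driver of the same fate, stood at 23.8, 33.1 and 30.4% and at 8.60, 14.6 and 10.5% over 5 CpGs, and 2.59% in plasma cells (0.0155 with summed reads). Xbp1, the factor of the secretory programme, fell from 41.3% ± 2.05 to 30.9% ± 2.52, a call that was lost with summed reads (0.0852) and at a coverage minimum of 5 reads, where the difference was -1.89 points. Zbtb32, a zinc finger repressor, fell from 83.8% ± 1.19 to 58.8% ± 1.89, and Mcl1, a survival gene of plasma cells, from 46.6% ± 0.469 to 28.2% ± 4 (0.0204 with summed reads). Tnfrsf13b, the receptor TACI, fell by 16.9 points (-9.67 at a minimum of 20 reads, still called). Of the genes of the sorting markers, Sdc1 (CD138) fell from 65.7% ± 1.56 to 53.1% ± 2.76 (0.0709 with summed reads; -6.35 points at a minimum of 5 reads, still called), while Ptprc (B220) at 50.5 and 49.1% and Spn (CD43) at 29.7 and 24.5% were not called. Ell2, Eaf2 and Mzb1, with 2.34 to 11.9% in naive B cells, differed by less than 1 point.

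Secretion and folding genes, which carry the antibody load of plasma cells, fell in 22 of 37 tested loci (59.5%; 11, or 29.7%, with summed reads) with a median of -7.33 points, near the values over all loci. Txndc5, a disulphide isomerase gene, fell from 83.5, 83.9 and 82.7% to 66.4, 65.9 and 65.7% over 60 CpGs, with SDs of 0.566 and 0.364 (n = 3). Pdia5 fell by 14.4 points, Sec11c of the signal peptidase by 13.8 and Ssr1 of the translocon by 13.5. Hspa5, the chaperone BiP, stood at 32.4 and 34.0%, and Atf4 at 13.6 and 14.1%; neither was called.

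Cytokines and their receptors fell in 25 of 38 tested loci (65.8%; 9, or 23.7%, with summed reads). Among all loci 61.5% fell, or 4006 of 14645 with summed reads. Il10, whose product limits inflammation, had the largest fall of the list, with naive B libraries at 64.0, 64.9 and 70.4% and plasmablast libraries at 20.9, 28.4 and 22.7% (limma, adjusted p = 2.04e-12), and 14 of its 20 CpGs fell. At a minimum of 20 reads the Il10 locus differed by -22.8 points and kept its call. Its CpGs differed in how far they fell. The 4 CpGs at -9108 to -9070 bases from the start stood at 67.6 to 70.3% and at 0.725 to 9.17%, and 6 CpGs 26900 to 27090 bases downstream at 55.1 to 81.8% and at 0.00 to 12.8%. Between them, the 3 promoter CpGs at -1096 to -1058 bases stood at 56.6 to 71.3% and at 55.2 to 72.5%, and that at -1302 bases at 96.1 and 90.5%, and none of these was called. An exon CpG 1153 bases downstream fell from 50.0 to 5.83%, and the 3 CpGs at 30869, 31129 and 31133 bases fell from 42.3, 99.2 and 94.9% to 13.5, 57.9 and 49.0%. Il21 fell from 82.8% ± 3.18 to 58.4% ± 4.95, Ifnar2, a type I interferon receptor chain, by 21.2 points and Il2ra, the high-affinity interleukin 2 receptor chain, from 96.8% ± 1.28 to 76.7% ± 2.17 (-11.6 points at a minimum of 20 reads, still called). Ltb and Ifnar1, under 2% in naive B cells, were not called.

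Single CpGs of Irf4 and Traf1, picked after their values were seen, show the same mixture over short distances. In the Irf4 promoter the CpG at -1379 bases stood at 44.9, 60.3 and 67.3% in naive B cells and at 9.26, 5.97 and 8.93% in plasmablasts (quasi-binomial adjusted p = 9.57e-17), and those at -1367 and -1153 bases fell by 30.7 and 28.1 points. The Irf4 CpG 1616 bases downstream stood at 1.96 and 9.66% and was not called. At Traf1 the CpG at -237 bases from 1 start fell from 91.9 to 18.4%, and those at -4, -52, -250 and -274 bases from 43.5 to 60.2% down to 6.11 to 25.8%. At a second Traf1 start the 4 CpGs between -105 and 114 bases stood at 2.17 to 5.36% and at 2.09 to 10.2%. Bach2 likewise has a second start, whose 10 CpGs 719 to 928 bases downstream stood at 0.00 to 3.97% and at 0.00 to 10.4% and were not called.

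**Figure D4:**
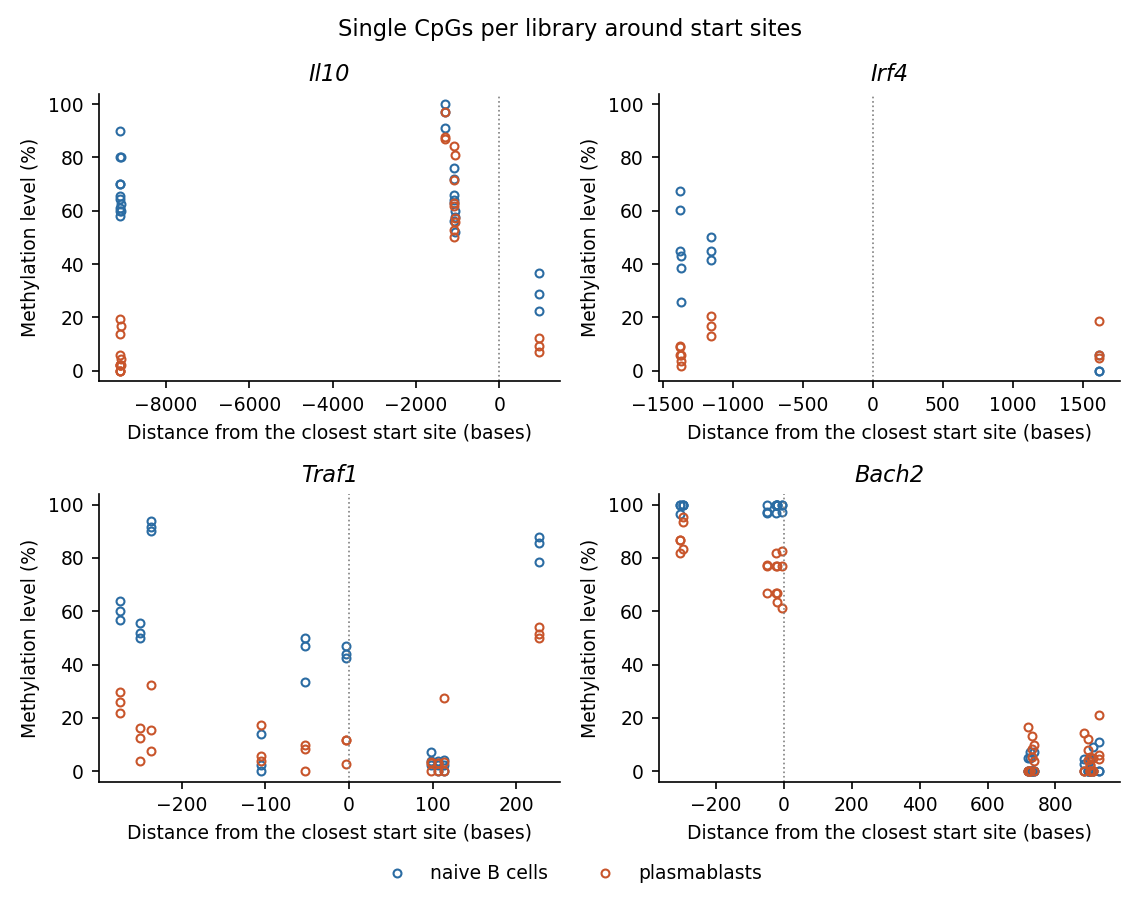
Methylation level (%) of single tested CpGs in each library against the distance from the closest start site (bases, negative upstream) for 4 genes; the Traf1 and Bach2 panels join CpGs of 2 start sites. Circles are libraries; plasmablasts lie far below naive B cells at -9108 to -9070 bases from Il10 and at -274 to -237 bases from Traf1, and both groups are low 719 to 928 bases downstream of the second Bach2 start.

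Proliferation genes fell in 10 of 25 tested loci (40%; 1, or 4%, with summed reads), with a median of -4.43 points and a median naive level of 49.8%. Cdk6, a kinase of the first gap phase, fell from 75.5% ± 2.05 to 62.0% ± 2.01, Ccne1 from 65% ± 1.15 to 55.4% ± 1.72 and the inhibitor gene Cdkn1a from 62.8% ± 0.808 to 53.3% ± 4.43; with summed reads their adjusted p was 0.0321, 0.0161 and 0.263, and the Cdkn1a difference -15.0 points. At a minimum of 5 reads Ccne1 differed by -6.04 points and Cdkn1a by -5.63, and both kept their call. Mcm4, a replicative helicase subunit, fell by 10.7 points, but differed by -4.81 with summed reads (adjusted p = 0.524) and by -2.15 at a minimum of 5 reads, and was called in neither. Cdkn1b, Ccne2, Cdkn2a and Aurkb, with 2.43 to 15.1% in naive B cells, differed by 0.985 to 1.15 points and were not called.

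The enzymes that set and remove methylation fell in 15 of 24 tested loci (62.5%; 7, or 29.2%, with summed reads). These shares lay near those over all loci, 61.5%, or 4006 of 14645 with summed reads. Tet2 led the list, with 87.3, 89.5 and 87.0% in naive B cells and 63.7, 66.8 and 64.5% in plasmablasts over 27 CpGs, 12 of which fell (limma, adjusted p = 1.38e-10). At a minimum of 5 reads Tet2 differed by -11.9 points, still called. Tdg, the glycosylase that excises oxidised methylcytosine, fell from 98.1% ± 1.68 to 76.7% ± 2.16, and Mbd1, a reader of methylated CpGs, from 61.6% ± 4.71 to 40.8% ± 2.29 (0.0120 with summed reads; -12.3 points at a minimum of 5 reads, still called). Tet3 fell by 12.5 points (0.0200 with summed reads). The maintenance enzyme gene Dnmt1 stood at 93.3, 94.6 and 94.9% and at 86.6, 87.4 and 83.6%, and its partner Uhrf1, at 2.07 and 3.20% over 12 CpGs, was not called.

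Migration and adhesion genes fell in 12 of 21 tested loci (57.1%; 3, or 14.3%, with summed reads). All loci together had 61.5% lower, or 4006 of 14645 with summed reads. Cd44, the hyaluronan receptor, fell from 63.8, 62.9 and 72.3% to 33.6, 36.2 and 35.2% over 6 CpGs (-19.5 points at a minimum of 5 reads, still called). Gpr183, which guides B cells within follicles, fell from 44.3% ± 3.53 to 22.5% ± 1.69. S1pr1, the egress receptor, fell by 15.9 points (0.0385 with summed reads), and Cxcr4, which draws plasma cells to bone marrow, by 14.6 over 56 CpGs. Ccr9, Icam1 and S1pr4, at 2.92 to 15.7% in naive B cells, differed by -0.215 to 1.67 points and were not called.

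Genes listed as markers of other lineages also fell, and no RNA was measured to show which of them these cells use. Of 19 tested T cell markers 18 fell (94.7%; 8, or 42.1%, with summed reads), with a median of -10.3 points and a median naive level of 78.9%. Themis stood at 98.1, 98.2 and 95.4% in naive B cells and at 76.2, 75.0 and 77.9% in plasmablasts, Tbx21 fell by 18.7 points and Icos by 17.2 (-10.8 at a minimum of 20 reads, still called). Of 12 myeloid markers 8 fell (66.7%, and 3 with summed reads), led by Lyz1 from 95.6% ± 0.642 to 80% ± 2.37, then Csf1r, Cebpb and Csf3r by 10.7 to 12.9. Cebpb lost its call at a minimum of 5 reads, with a difference of -2.29 points, and Csf3r with summed reads (0.0216). Of 17 erythroid and stem cell markers 9 fell (52.9%, and 4 with summed reads). Among them were Epor, the erythropoietin receptor, by 12.5 points (0.0336 with summed reads, and -7.50 at a minimum of 5 reads, still called) and Kit, the stem cell factor receptor, by 9.85. The NK cell list held 5 tested loci, of which Il2rb, Prf1 and Gzma (60%) fell by 10.9 to 14.5 points, and none with summed reads. Over all loci 61.5% fell, or 4006 of 14645 with summed reads. The myeloid, erythroid and stem cell and NK shares lay near that 61.5% and mark no trait of those lineages.

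Developmental, germline and imprinted genes differed in the share that fell, with no test between these lists. Hox and Polycomb developmental genes, with a median naive level of 22.2%, fell in 14 of 83 tested cases (16.9%; 1, or 1.20%, with summed reads), with a median of -1.76 points. Hoxb3 was apart from its neighbours, with 95, 94.2 and 93.7% in naive B cells and 73.6, 76.9 and 75.9% in plasmablasts, while Hoxb6 to Hoxb9 stood at 4.73 to 14.2% and were not called. Otx2, Sox1 and T differed by -8.74 to -8.32 points, and each lost its call with summed reads (0.0339, 0.0320 and 0.0599). Sox1 also lost it at minimums of 5 and 20 reads, where it differed by -4.49 and -4.89 points. Germline genes, with a median naive level of 92.5%, fell in 18 of 22 (81.8%; 9, or 40.9%, with summed reads), led by Dazl from 95.5% ± 1.64 to 73.9% ± 3.42, Rpl10l, Piwil4 (0.0192 with summed reads) and Tex19.1 by 14.1 to 14.2. Imprinted genes fell in 14 of 26 (53.8%; 5, or 19.2%, with summed reads), including H19 by 13.9 points and Kcnq1ot1 by 13.2 (0.0186 with summed reads); Gnas, Mest, Phlda2 and Igf2r, at 7.47 to 61.1%, were not called.

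**Figure D5:**
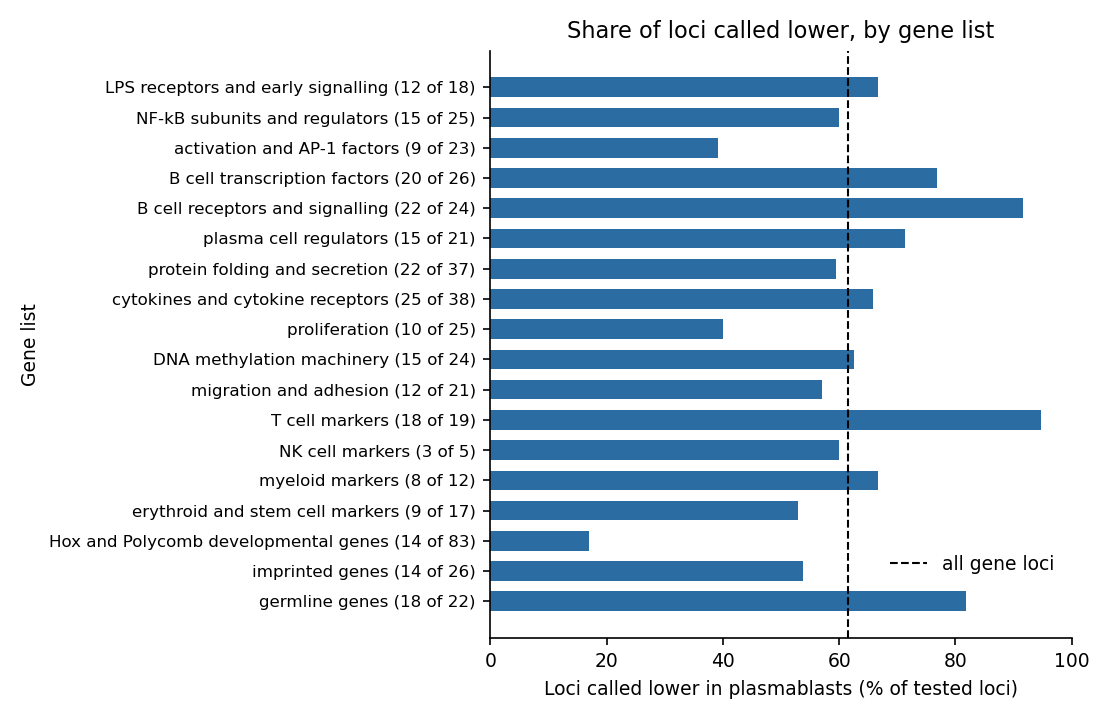
Share of tested gene loci called lower in plasmablasts (% of tested loci) for each gene list, with the counts in brackets; the dashed line is the share over all 14645 loci (61.5%). Hox and Polycomb developmental genes (16.9%), activation and AP-1 factors (39.1%) and proliferation genes (40%) lie left of it, T cell markers (94.7%) and B cell receptors and signalling (91.7%) right of it.

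Hox and Polycomb developmental genes, activation and AP-1 factors and proliferation genes had the lowest shares and low naive levels, at 22.2, 39.9 and 49.8%. T cell markers and B cell receptors and signalling genes had the highest shares, at naive levels of 78.9 and 72.5%. The lowest shares went with low naive levels, but the order of the lists was not strict. Germline genes, with the highest median level of the lists (92.5%), had 81.8% of loci lower, and T cell markers at 78.9% had 94.7%. Imprinted genes at 69.5% had 53.8%, and B cell transcription factors at 57.1% had 76.9%. NF-kB subunits and regulators at 73.3% had 60%, against 91.7% for B cell receptors and signalling genes at 72.5%. No test was made between lists.

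Loci that rose were few and their calls fragile. Cited1 stood at 37.5, 36.8 and 40.9% in naive B cells and at 42.5, 56.1 and 52.1% in plasmablasts over 35 CpGs (limma, adjusted p = 6.37e-05; 0.104 with summed reads), and at 33.4% in plasma cells. Cd93, a plasma cell surface receptor gene, stood at 25.7, 29.6 and 28.3% and at 33.4, 39.5 and 37.5% (0.31 with summed reads). Its change was split, since 4 CpGs in its exon 1763 to 1986 bases downstream rose by 26.6 to 36.3 points and 2 CpGs at -62828 and -62538 bases fell by 32.5 and 22.3 points. Tex16, Ifitm3 and Car2 rose by 7.98 to 9.34 points and each lost its call in at least 5 of the alternative settings. At a minimum of 5 reads Cited1, Tex16 and Car2 differed by 6.20, 3.78 and 3.38 points and were not called; at 20 reads Car2 differed by 2.89. With summed reads Cited1 differed by 7.85 points and Ifitm3 by 3.40, and without naive B cells 1 and plasmablasts 2 Tex16 differed by 5.73. Pbx2, a homeobox factor gene, differed by 5.89 points and was not called (adjusted p = 0.0107), but was with summed reads (16.2 points, adjusted p = 0.00987). The count of loci that rose was 4 without naive B cells 1, 20 without plasmablasts 1 and 0 without both naive B cells 1 and plasmablasts 2.

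Near start sites, CpGs within 1000 bases were averaged per gene by the same rule. Of 7283 genes 431 fell, which is 5.92%, and 9 rose, which is 0.124%, and the median gene differed by 1.14 points from a median naive level of 3.93%. With summed reads 46 fell, with a trend on counting variance 306, and without naive B cells 1 and plasmablasts 2 the count was 31. The falls named next kept their call in all 3 settings. Cnp stood at 88.9, 88.4 and 84.3% in naive B cells and at 39.7, 33.5 and 41.8% in plasmablasts, with each of its 12 CpGs lower. Arid3b, an AT-rich DNA binding factor gene, stood at 68.0, 78.4 and 74.5% and at 30.4, 30.6 and 21.6%, with all 8 CpGs lower. At a minimum of 5 reads Arid3b differed by -19.7 points, Xrcc1 by -9.77 and Arhgef2 by -9.63, and all 3 kept their call. Lrmp, a lymphocyte membrane protein gene, fell from 92.4% ± 2.94 to 54.3% ± 7.08 and Xrcc1 from 69.9% ± 3.40 to 35.3% ± 3.19. Irak2 fell from 41.0% ± 2.13 to 14% ± 1.67 and to 3.77% in plasma cells, and Traf1 from 39.1% ± 2.99 to 14.5% ± 3.09. Abcc6, Plekhm3 and Arhgef2 fell by 26.9 to 37.4 points.

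The named genes that rose near a start each lost their call with summed reads. Tenm2 stood at 77.1, 70.0 and 62.0% in naive B cells and at 80.8, 80 and 86.3% in plasmablasts, Angpt2 rose by 12.2 points and A830018L16Rik by 11.8, from 7.68% ± 2.09. Pbx2 was called here, with 9.72, 17.6 and 21.3% against 32.2, 27.7 and 23.9% over 5 CpGs; that call ended in 8 alternative settings. The count that rose was 16 without naive B cells 2 and 21 without plasmablasts 1. Bach2 over 16 CpGs of both starts stood at 38.5% ± 1.24 and 32.2% ± 2.32 and was not called (adjusted p = 0.0202), but within 500 bases, where only CpGs of the start printed above count, it differed by -21.3 points (adjusted p = 1.20e-09). At a minimum of 20 reads the Bach2 start-site difference was 2.47 points and was not called (adjusted p = 0.744). Myc and Bcl6, at 1.40 and 1.55% in naive B cells, were not called.

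By number of CpGs that fell, genes with many tested CpGs led. Prdm16 had 41 of 273 tested CpGs lower, Foxp1 37 of 202, Nav2 37 of 182, Sdk1 36 of 159 and Camta1 33 of 263, shares of 12.5 to 22.6% against 10.2% over all CpGs. The genes were chosen for these counts, so the shares only describe them. None of their CpGs rose, and over all CpGs only 0.0509% did. Foxp1 is a forkhead factor of B cell development; the others are known mainly outside the lineage. By number of CpGs that rose, Egr3 was followed by Anks1 and Cd93 with 4 each, Rap2a with 3 and 1700016K19Rik with 2.

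The authors' deposited table of CpGs that differ between naive B cells and plasmablasts held 17575 CpGs, of which 12585 were tested here. Of these 12567 fell and 15 rose by the rule above, and 3 were lower without a call. CpGs of the authors' deposited table made up 31.1% of all CpGs called here, in either direction. The median fall was 34.4 points for CpGs called lower here that are in that table and 24.2 for those outside it, at a median depth of 33.2 and 30.7 reads per library.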

How the data were processed

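Reduced representation bisulfite sequencing (50 bp single-end reads) gave CpG methylation in 3 naive B cell and 3 plasmablast libraries, with 3 plasma cell libraries for levels only. The deposited table gives counts of methylated and unmethylated reads per CpG and library, with strands joined and each CpG assigned to its closest start site, per the file headers and the note the authors deposited with the table. The submitters' processing notes name Bismark, Bowtie2 and build mm9. The authors' deposited lists of differing CpGs were used only for the overlap. Without molecular identifiers, PCR copies count as reads.

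CpGs with at least 10 reads in all 6 libraries were kept. Single CpGs and segments (4 or more CpGs, gaps up to 100 bp) were tested with a quasi-binomial model whose dispersion was moderated by limma 3.58.1 in R 4.3.3 (at least 1). The prior was taken from CpGs with a dispersion above 0 and levels strictly between 0 and 100%. This was chosen after a prior over all CpGs had given no calls. For single CpGs the prior had infinite degrees of freedom, so all but 692 CpGs shared a dispersion of 1.28. For segments the prior was 2.38 with 128 degrees of freedom, so their dispersion was drawn mainly from it. Gene loci and start-site genes (5 or more CpGs; within 1000 bp) were tested with limma on mean levels, expressed as a fraction or percent of reads computed from the deposited counts. All p-values were Benjamini-Hochberg adjusted over each table; class means had exact permutation tests. Calls needed an adjusted p under 0.01, a minimum difference of 20, 10 or 5 points for CpGs, segments or genes, and no overlap.

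The text names the 8 segments with the largest falls and the 8 with the largest rises that carry a symbol, the 10 loci that fell and 5 that rose the most, the 8 and 3 start-site genes likewise, 5 genes with most CpGs called in each direction, up to 4 called members per list, and 20 regulators always. Some of the genes this rule names are not reported here. Uncalled list members and single CpGs of Il10, Irf4, Traf1, Bach2 and Cd93 were chosen after their values were seen. The comparison, lists and regulators were chosen with earlier results of these data known. Same-numbered libraries of the 2 groups correlated at -0.00622 to 0.0272 in their deviations, so the numbers were not treated as pairs. In simulated data 80 of 100 segment falls of 15 points and 81 of 100 locus falls of 10 points were recovered. The simulation drew each CpG independently, changed few units and held no library background, so these shares do not give the recovery in the real libraries.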

Additional observations from a re-analysis of the deposited data

How the results depend on the processing

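Of 133 named results 124 were called. Of these, 81 kept direction and call under every alternative run for them, 43 lost the call under at least 1, and none turned direction. Of the 9 not called, 4 gained a call and 3 turned direction under at least 1 alternative: the Myc locus ranged from -2.22 to 1.03 points, the Myc start site from -0.105 to 3.25 and the Bach2 start site from -21.3 to 2.47. With reads summed, 38 of 108 called results lost their call, and a minimum of 5 reads moved 22 called differences by over 1.5 times; the cause was not tested. With a minimum of 20 reads, 19009 CpGs fell and 103 rose, 740 segments fell and 4 rose, 6 loci rose, and 146 start-site genes fell and 3 rose; with 5 reads 28 segments rose. With library background subtracted 27 segments and 2 start-site genes rose. Without naive B cells 1 and plasmablasts 2, a setting chosen after seeing the data, 47 CpGs rose, no locus rose, and 31 start-site genes fell and 0 rose; mean differences were -9.18 points over all CpGs, -3.49 in promoters, -5.94 in exons, -10.3 in introns and -2.39 within 1 kb. With all 9 libraries fitted 25 segments rose, and 259 start-site genes fell and 2 rose. The replicate block, which pairs same-numbered libraries, gave 26 segments and 23 start-site genes higher and left the other counts within 1.5 times (40831 and 204 CpGs, 9135 loci lower). A minimum difference of 10 points gave 73186 CpGs lower and 601 higher, and 30 points gave 12535 and 52. The dispersion of each CpG alone gave 0 and 0 (103965 and 2583 at an unadjusted p under 0.05), as did a prior over all CpGs (0 and 0), also chosen after seeing the data. Gaps up to 200 bp gave 8144 segments lower and 32 higher. Summed reads gave 4006 loci lower and 1 higher, and 46 start-site genes lower and 1 higher. Loci of at least 10 CpGs gave 6 higher, a window of 500 bp gave 203 start-site genes lower, and the counting-variance trend, added after seeing the data, gave 5 loci and 1 start-site gene higher.

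Leaving out each library in turn gave 30485 to 37532 CpGs lower and 102 to 235 higher, 1258 to 2297 segments lower and 9 to 22 higher, 8236 to 9635 loci lower and 4 to 20 higher, and 294 to 482 start-site genes lower and 6 to 21 higher. Mean differences ranged from -8.56 to -7.40 over all CpGs, from -2.62 to -0.926 in promoters and from -1.51 to 0.253 within 1 kb. At a median of 24 to 35 reads per CpG and library, small differences at single CpGs were not detectable.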
